A study of Mus musculus with 12 samples.

Results

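The 10 genes described here make bile acids from cholesterol in the liver or set how fast that happens: the enzymes Cyp7a1, Cyp7b1, Cyp8b1, Cyp27a1, Hsd3b7, Akr1d1, Slc27a5 and Baat, and the nuclear receptors Nr0b2 and Nr1h4. They were followed through every Affymetrix probe set annotated to one of these symbols and to no other gene, which gave 14 of 22626 probe sets on the 430A array and 16 of 45037 on the 430 2.0 array. Liver RNA came from mice 10 weeks of age. On 430A, Fah off stands for 3 Fah knockout livers and Fah p21 off for 2 Fah, p21 double knockout livers, all taken after 14 days without NTBC. The normal group, as the titles define it, pooled 4 livers with 1 mouse per condition: a wildtype on water (normal 1), a wildtype on NTBC (normal 2), a Fah knockout on NTBC (normal 3) and a Fah, p21 knockout on NTBC (normal 4). On 430 2.0 there were 2 further Fah p21 off livers (numbered 3 and 4) and 1 normal liver, a Fah, p21 knockout on NTBC that also carries number 4. Whether both arrays numbered normal 4 were made from the same animal is not stated, and the labels do not name strain, sex or hour of collection. The titles call the samples biological replicates. Tyrosine breakdown ends with the hydrolase encoded by Fah; NTBC blocks an earlier step and so spares Fah knockout livers the toxic late products. p21, encoded by Cdkn1a, inhibits cyclin-dependent kinases.

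Bile acids are made along 2 routes. In the classical route Cyp7a1 hydroxylates cholesterol first and limits the rate, while in the alternative route Cyp27a1 oxidises the side chain and Cyp7b1 then hydroxylates the ring. Hsd3b7 and Akr1d1 remodel the ring, Cyp8b1 adds the hydroxyl group that makes cholic acid, and Slc27a5 and Baat couple the finished acid to coenzyme A and then to taurine or glycine. Bile acids bind the receptor Nr1h4 (FXR), which induces the repressor Nr0b2 (SHP) and, in the ileum, the hormone Fgf15; both lower Cyp7a1 transcription.

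RefSeq promoter windows of the GRCm38.p6 build, from 250 bases before to 50 after the start site, were given for 6 of the 10 genes, Cyp8b1, Cyp27a1, Hsd3b7, Akr1d1, Nr0b2 and Nr1h4. Only the 4 windows in which at least 1 searched motif occurred are shown, those of Cyp8b1, Akr1d1 and both receptors. The windows of Cyp27a1 and Hsd3b7, which were also lower in both knockouts, held none of the motifs reported here. Capitals mark motif matches on either strand: AGGTCA, the core site of nuclear receptors; TATAAA, the TATA box; and TCAAGG, the core of the site bound by Nr5a2. The last 2 were added to the search after the sequences had been seen.
Cyp8b1, chr9:121916256-121916555, minus strand: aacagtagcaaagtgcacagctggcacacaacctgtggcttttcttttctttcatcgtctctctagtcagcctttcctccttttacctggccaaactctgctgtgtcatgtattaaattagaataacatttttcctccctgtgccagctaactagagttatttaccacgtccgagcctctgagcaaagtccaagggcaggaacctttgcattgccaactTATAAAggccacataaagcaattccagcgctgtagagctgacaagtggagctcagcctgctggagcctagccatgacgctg
Akr1d1, chr6:37529923-37530222, plus strand: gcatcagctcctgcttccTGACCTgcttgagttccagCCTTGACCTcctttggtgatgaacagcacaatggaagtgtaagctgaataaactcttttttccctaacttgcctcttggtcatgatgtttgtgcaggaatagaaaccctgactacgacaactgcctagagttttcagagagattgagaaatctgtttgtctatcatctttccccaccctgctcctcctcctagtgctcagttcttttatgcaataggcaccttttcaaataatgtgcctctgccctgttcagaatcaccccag
Nr0b2, chr4:133553126-133553425, plus strand: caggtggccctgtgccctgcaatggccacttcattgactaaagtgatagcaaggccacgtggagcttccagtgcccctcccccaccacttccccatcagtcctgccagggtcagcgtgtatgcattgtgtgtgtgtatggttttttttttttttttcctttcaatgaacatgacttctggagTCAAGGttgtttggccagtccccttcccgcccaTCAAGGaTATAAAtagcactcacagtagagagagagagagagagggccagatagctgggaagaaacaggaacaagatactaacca
Nr1h4, chr10:89506609-89506908, minus strand: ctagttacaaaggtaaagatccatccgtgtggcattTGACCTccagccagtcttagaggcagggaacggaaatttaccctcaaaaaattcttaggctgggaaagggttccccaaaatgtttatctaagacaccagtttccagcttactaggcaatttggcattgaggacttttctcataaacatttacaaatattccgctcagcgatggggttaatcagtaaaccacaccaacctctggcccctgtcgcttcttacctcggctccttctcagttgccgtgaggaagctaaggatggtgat
The Cyp8b1 window held TATAAA at bases 220 to 225 of the window. The Akr1d1 window held AGGTCA on the opposite strand at bases 19 to 24 and 41 to 46, and TCAAGG at 38 to 43, overlapping the second, also on the opposite strand. The Nr0b2 window held TCAAGG at bases 183 to 188 and 216 to 221 and TATAAA at 223 to 228. The Nr1h4 window held AGGTCA on the opposite strand at bases 37 to 42. Such matches were common: of 32851 promoter windows of 300 bases, 16.3% held AGGTCA, 13.6% TATAAA and 14.4% TCAAGG. The longer motifs were rarer, with CAAGGTCA in 1.56% of windows, the inverted repeat of AGGTCA spaced by 1 base (IR-1) in 0.00913% and the direct repeat spaced by 1 base (DR-1) in 0.0396%, and none of these 3 occurred in the 6 windows. A match describes the letters of a window and does not show that a factor binds there.

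The targeted genes were read first. Fah had signals of 113.5, 100.8 and 107.5 in Fah off livers and 114.2 and 105.3 in Fah p21 off livers, against 6868.1 and 7120.1 in the wildtype livers and 181.9 and 233.0 in the knockout livers on NTBC. Every liver labelled as a knockout was therefore far below the wildtype livers. For Cdkn1a the probe sets disagreed. Probe set 1421679_a_at read 9.5 and 8.2 in Fah p21 off livers, against 989.5, 1861.5 and 1195.5 in Fah off livers, whereas 1424638_at read 1827.6 and 2059.6 in Fah p21 off livers, against 2814.0, 3675.9 and 3935.7 in Fah off livers. The labels do not say which of them lies in the deleted part; only the first follows the genotype. Signals are MAS5 values on a linear scale that the authors scaled to a mean near 350 per array; the number of arrays limits the precision. Over all 15307 probe sets tested on 430A, limma called 3082 higher and 2355 lower in Fah off than in normal livers, and 2716 higher and 1637 lower in Fah p21 off than in normal livers.

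Off NTBC, the enzymes of bile acid synthesis were lower as a group, while the receptors Nr1h4 and Nr0b2 did not pass the test. In Fah off livers 11 of 14 probe sets, of 7 genes, were called lower than in normal livers at a limma adjusted p under 0.05, against 15.4% of all probe sets tested, and 0 were called higher, against 20.1% of all. In Fah p21 off livers 11 of 14 probe sets, of 8 genes, were called lower, against 10.7% of all, and 0 were called higher, against 17.7%. The median log2 change of the 14 probe sets was -1.18 in Fah off livers, where the median of all probe sets was 0.02, and -1.54 in Fah p21 off livers, where it was 0.11. All 14 passed the filter on dim signals. In 11 of the 14 every Fah off liver lay below every normal liver, against 19.0% of all probe sets, and in 12 of the 14 every Fah p21 off liver did, again against 19.0%. With the liver of the same genotype on NTBC as the only control, all 14 log2 changes were negative in both knockouts. Their median was -1.33 in Fah off and -1.27 in Fah p21 off livers, where the median of all probe sets was 0 in each. In that fit the lone control is assumed to vary like the other groups, so its calls are not counted as results. Calls that did not hold there in Fah off livers were both of Cyp7a1 and that of Baat 1419002_s_at. In Fah p21 off livers they were both of Cyp7a1, both of Akr1d1, and those of Cyp8b1 and Baat 1419002_s_at. The log2 changes of these ran from -0.79 to -1.56.

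**Figure D1:**
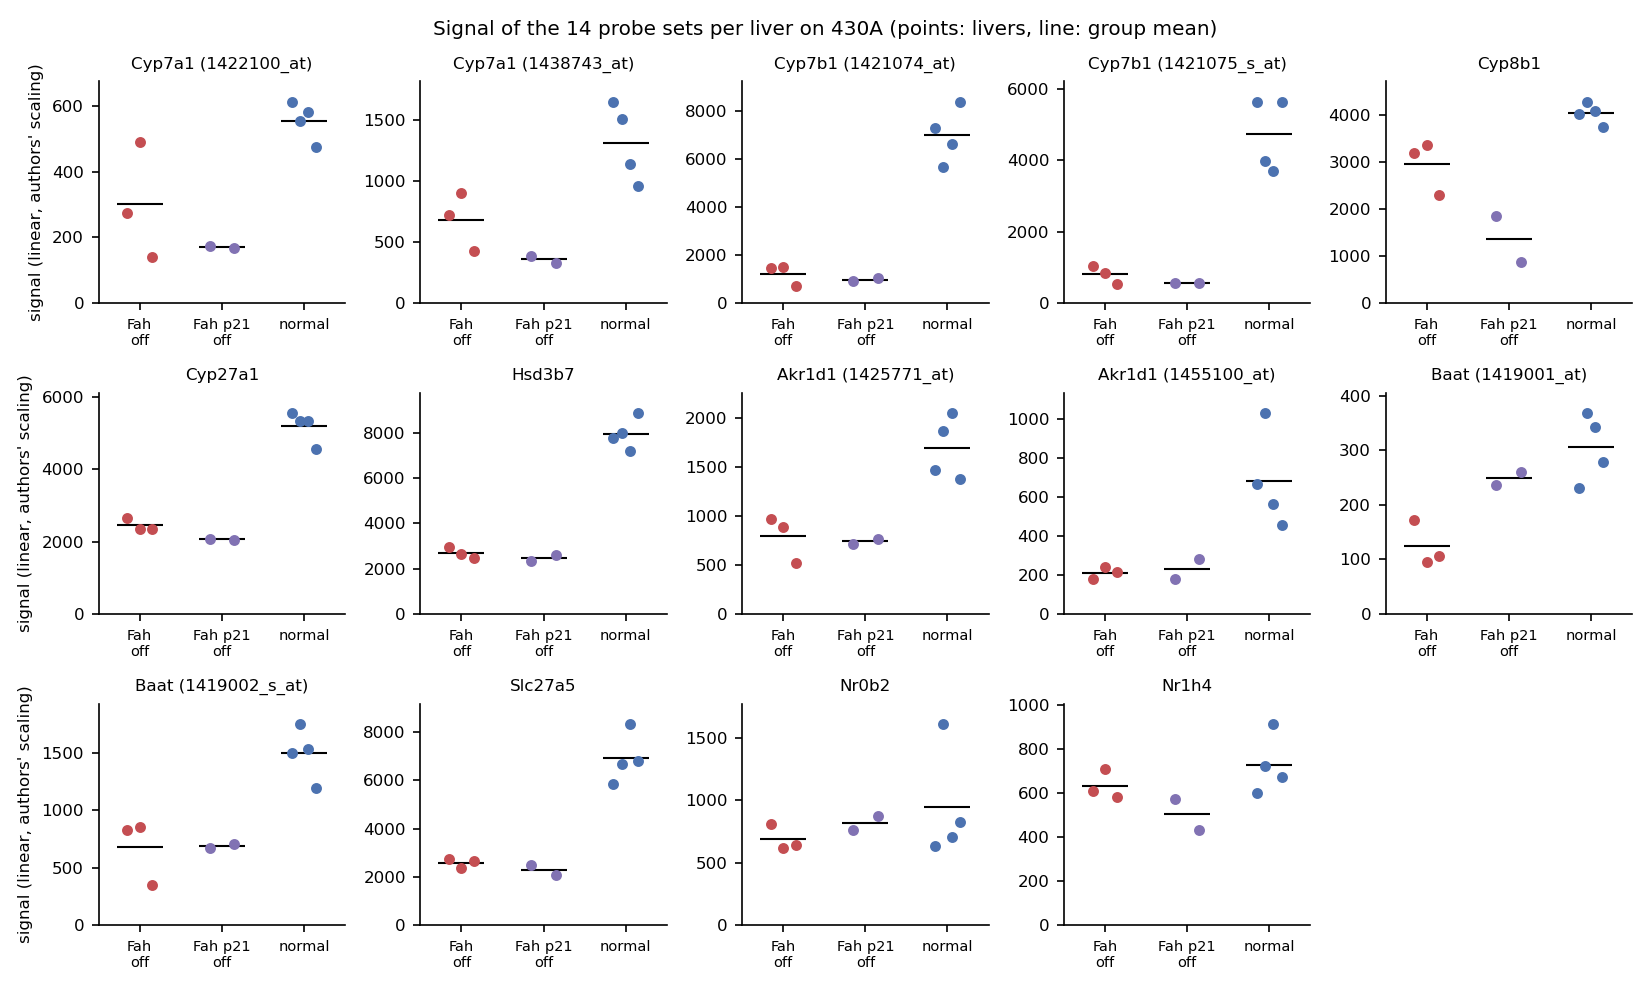
Signal on a linear scale for each of the 14 probe sets on 430A, one panel each, with a point per liver for the 3 Fah off, 2 Fah p21 off and 4 normal livers and a line at the group mean. The enzymes sit lower in the livers off NTBC, while Nr0b2 overlaps between all groups and Nr1h4 overlaps between Fah off and normal livers.

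Hepatocyte markers moved the same way and are given beside these counts. All 7 markers on the array (Alb, Ttr, Apoa1, Apoa2, Serpina1c, Fgb and Ahsg) were called lower in both knockouts off NTBC. Of all genes 16.5% were called lower in Fah off and 11.5% in Fah p21 off livers. The median log2 change of the markers was -0.58 in Fah off and -0.70 in Fah p21 off livers. Their summed signal was 78697.9 to 86601.6 in Fah off livers and 75478.3 to 78616.0 in Fah p21 off livers, against 118093.2 to 126295.2 in normal livers. In whole liver, fewer cells of a type and less RNA per cell cannot be told apart. When each array was scaled to a common sum of these 7 markers, a setting chosen after seeing the data, 8 of 14 probe sets of the bile acid genes were still called lower in Fah off livers, against 5.25% of all probe sets, and 9 of 14 in Fah p21 off livers, against 3.48%. That scaling moved the median of all probe sets to 0.58 and 0.75, with 8301 called higher and 804 lower in Fah off livers and 9701 higher and 533 lower in Fah p21 off livers. The median of the 14 probe sets was then -0.59 in Fah off and -0.87 in Fah p21 off livers. Of 7 stellate cell and fibroblast markers 2 passed upward in Fah off and 4 in Fah p21 off livers, where 19.7% and 17.8% of all genes did, with summed signals of 4157.7 to 6167.9 in Fah off and 6554.8 to 7263.3 in Fah p21 off livers, against 2794.5 to 3637.8 in normal livers. Of 7 macrophage markers 2 passed upward in Fah off and 3 in Fah p21 off livers, with sums of 6803.6 to 8663.8 in Fah off and 9326.6 to 9633.3 in Fah p21 off livers, against 4476.0 to 8387.2 in normal livers. In Fah off livers both counts of 2 of 7 were near the share of all genes. The stellate cell and fibroblast counts of both knockouts include Lrat, which was below the filter level in every normal liver. Lrat thus entered the test only through the livers off NTBC. Of 6 cholangiocyte markers on the array 3 missed the filter on dim signals (Krt7, Krt19 and Cftr), and Sox9 and Epcam were below its level in every normal liver, so the list is given by its sums only, 414.7 to 481.4 in Fah off and 475.0 to 611.7 in Fah p21 off livers, against 312.0 to 435.7 in normal livers. The erythroid gene Alas2 was lower (log2 change -4.05 ± 0.58 in Fah off and -3.58 ± 0.66 in Fah p21 off livers, SE; limma adjusted p 0.000302 and 0.00219), with sums of the 2 erythroid markers on the array at 50.3 to 230.8 in Fah off and 148.0 to 225.9 in Fah p21 off livers, against 1171.6 to 2239.5 in normal livers. Of 5 endothelial markers only Lyve1 passed, upward, which is near the 19.7% and 17.8% of all genes called higher. Its log2 change was 1.75 ± 0.28 in Fah off and 2.04 ± 0.31 in Fah p21 off livers (SE, limma adjusted p 0.00057 and 0.000718). Lyve1 reached the filter level in 2 of 4 normal livers. The part of these cell types in the lower enzyme signals was not tested.

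Cyp7b1, the ring hydroxylase of the alternative route, fell most of the 10 genes in both comparisons. Probe set 1421074_at read 1460.4, 1504.0 and 721.0 in Fah off livers and 912.9 and 1036.2 in Fah p21 off livers, against 7307.9, 5697.7, 6624.4 and 8407.0 in normal livers. Probe set 1421075_s_at read 1032.9, 849.9 and 538.8 in Fah off livers and 557.6 and 550.6 in Fah p21 off livers, against 5621.9, 3971.6, 3696.0 and 5636.7 in normal livers. No liver off NTBC came near the lowest normal liver on either probe set. The fold was 5.91 and 5.9 in Fah off livers (log2 change -2.56 ± 0.24 and -2.56 ± 0.22, SE; limma adjusted p 1.4e-05 and 9.71e-06). In Fah p21 off livers it was 7.07 and 8.25 (log2 change -2.82 ± 0.27 and -3.04 ± 0.25, SE; limma adjusted p 3.31e-05 and 1.45e-05).

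Cyp27a1, which opens the alternative route and also oxidises side chains in the classical one, was lower by a steadier, smaller margin. It read 2636.7, 2351.9 and 2340.1 in Fah off livers and 2059.9 and 2052.3 in Fah p21 off livers, against 5555.4, 5330.9, 5321.0 and 4547.5 in normal livers. The groups were tight and did not overlap. Its signal was 2.12-fold lower in Fah off livers (log2 change -1.08 ± 0.11, SE; limma adjusted p 2.41e-05) and 2.51-fold lower in Fah p21 off livers (-1.33 ± 0.12, SE; limma adjusted p 2.81e-05).

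Cyp7a1, the rate-limiting hydroxylase of the classical route, was lower in both knockouts, with a wide spread among Fah off livers. Probe set 1438743_at read 721.4, 898.9 and 426.4 in Fah off livers and 383.1 and 331.1 in Fah p21 off livers, against 1651.7, 1513.0, 1144.3 and 955.7 in normal livers. Probe set 1422100_at read 272.5, 491.0 and 141.2 in Fah off livers and 173.1 and 166.8 in Fah p21 off livers, against 612.7, 552.4, 581.1 and 473.9 in normal livers. Fah off 2 lay above the lowest normal liver on the second probe set, whereas both Fah p21 off livers lay below all normal livers on each. The Fah off change was -0.97 ± 0.25 for 1438743_at and -1.02 ± 0.31 for 1422100_at on the log2 scale (SE; limma adjusted p 0.0121 and 0.0252). The Fah p21 off change was -1.82 ± 0.29 and -1.65 ± 0.35 (SE; limma adjusted p 0.000848 and 0.00523), or 3.54-fold and 3.13-fold lower. The Fah off call of 1422100_at was lost without normal 1 (-0.97, limma adjusted p 0.0534), without Fah off 1 (-1.03, 0.0616) and without Fah off 3 (-0.58, 0.0701). With the 2 knockout livers on NTBC as the only control, the Fah off calls of 1422100_at (-0.95, limma adjusted p 0.108) and of 1438743_at (-0.67, 0.1) were lost, and so were they under hepatocyte marker scaling (-0.44 and -0.39, limma adjusted p 0.237 and 0.196).

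Cyp8b1, whose activity sets the share of cholic acid, differed more between the knockouts than any other enzyme of the set, though without passing. It read 3197.9, 3373.5 and 2293.0 in Fah off livers and 1846.4 and 863.9 in Fah p21 off livers, against 4033.6, 4288.7, 4079.1 and 3745.5 in normal livers. All livers off NTBC were below all normal livers, and both Fah p21 off livers were below all Fah off livers. The Fah p21 off signal was 3.17-fold lower than normal (log2 change -1.67 ± 0.25, SE; limma adjusted p 0.000677). The Fah off change of -0.47 ± 0.22 did not pass (SE; 95% interval -0.96 to 0.03; limma adjusted p 0.131), though it did when either Fah p21 off liver was left out of the shared fit (limma adjusted p 0.0315 without Fah p21 off 1 and 0.0308 without Fah p21 off 2). Under hepatocyte marker scaling the Fah off change of Cyp8b1 was 0.12 (limma adjusted p 0.636).

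The ring-modifying enzymes were lower in every liver off NTBC. Hsd3b7, the dehydrogenase that acts on the hydroxylated sterol of both routes, read 2940.0, 2653.2 and 2475.7 in Fah off livers and 2329.3 and 2590.8 in Fah p21 off livers, against 7781.6, 7967.1, 7200.7 and 8879.5 in normal livers. Its signal was 2.95-fold lower in Fah off livers (log2 change -1.56 ± 0.11, SE; limma adjusted p 2.23e-06) and 3.22-fold lower in Fah p21 off livers (-1.69 ± 0.13, SE; limma adjusted p 7.1e-06). These were the smallest p-values among the 14 probe sets in each comparison. Akr1d1, which reduces the double bond of the ring, read 976.8, 891.1 and 517.4 in Fah off livers and 714.4 and 772.3 in Fah p21 off livers on 1425771_at, against 1475.3, 1871.0, 2059.7 and 1378.4 in normal livers. On 1455100_at it read 179.8, 241.7 and 214.1 in Fah off livers and 179.1 and 282.2 in Fah p21 off livers, against 663.2, 1030.8, 564.5 and 455.0 in normal livers. Neither probe set overlapped between livers off NTBC and normal livers. Its changes were -1.12 ± 0.22 and -1.58 ± 0.26 in Fah off livers (log2, SE; limma adjusted p 0.00236 and 0.000727) and -1.16 ± 0.25 and -1.48 ± 0.29 in Fah p21 off livers (limma adjusted p 0.00527 and 0.00331). Without Fah p21 off 1 both Fah p21 off calls of Akr1d1 were lost (-1.11 and -1.17, limma adjusted p 0.0515 and 0.0565), and under hepatocyte marker scaling that of 1425771_at was lost (-0.49, limma adjusted p 0.09).

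Of the conjugation enzymes, Slc27a5 was lower in both knockouts, while the probe sets of Baat disagreed in Fah p21 off livers. Slc27a5, the bile acyl-CoA synthetase, read 2749.8, 2343.3 and 2658.5 in Fah off livers and 2472.2 and 2069.0 in Fah p21 off livers, against 5828.0, 6658.4, 8346.3 and 6792.1 in normal livers. It was 2.65-fold lower in Fah off livers (log2 change -1.41 ± 0.14, SE; limma adjusted p 1.84e-05) and 3.02-fold lower in Fah p21 off livers (-1.59 ± 0.15, SE; limma adjusted p 3.54e-05), without overlap. Baat, the transferase that joins bile acids to taurine or glycine, read 828.4, 856.5 and 344.2 in Fah off livers and 670.2 and 703.7 in Fah p21 off livers on its brighter probe set 1419002_s_at, against 1497.7, 1751.5, 1527.1 and 1192.5 in normal livers. Both knockouts lay below every normal liver there, with changes of -1.23 ± 0.28 in Fah off and -1.10 ± 0.31 in Fah p21 off livers (log2, SE; limma adjusted p 0.00526 and 0.0231). The dimmer probe set 1419001_at read 172.3, 95.7 and 106.1 in Fah off livers and 236.7 and 259.7 in Fah p21 off livers, against 230.5, 368.8, 342.7 and 278.0 in normal livers. On it Fah off livers were lower (-1.25 ± 0.22, SE; limma adjusted p 0.00119), while Fah p21 off livers overlapped the normal ones (-0.27 ± 0.25, SE; limma adjusted p 0.473). Under hepatocyte marker scaling the Fah p21 off change of 1419001_at was 0.39, and both calls of 1419002_s_at were lost (-0.64 in Fah off and -0.42 in Fah p21 off livers, limma adjusted p 0.0567 and 0.228). The Fah p21 off call of 1419002_s_at was also lost without normal 2 (-1.01, limma adjusted p 0.0537), without Fah p21 off 1 (-1.06, 0.128) and without Fah p21 off 2 (-1.13, 0.102).

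Neither receptor of the feedback loop passed the test in the fit with all livers. Nr0b2, the repressor SHP, read 806.1, 618.1 and 636.8 in Fah off livers and 760.7 and 876.2 in Fah p21 off livers, against 629.9, 1612.7, 706.6 and 825.4 in normal livers. All 3 groups overlapped, and the highest value was that of normal 2, the wildtype on NTBC. The change was -0.36 ± 0.27 in Fah off livers (log2, SE; 95% interval -0.96 to 0.24; limma adjusted p 0.336) and -0.10 ± 0.31 in Fah p21 off livers (95% interval -0.79 to 0.58; limma adjusted p 0.839); without normal 2 the second was 0.19. Under hepatocyte marker scaling the Nr0b2 changes were 0.22 in Fah off and 0.57 in Fah p21 off livers, and neither passed. Nr1h4, the bile acid receptor FXR, read 608.9, 708.3 and 579.0 in Fah off livers and 571.9 and 432.7 in Fah p21 off livers, against 599.8, 723.1, 913.6 and 672.8 in normal livers. Fah off livers overlapped the normal ones, and both Fah p21 off livers lay below them. The Nr1h4 change was -0.19 ± 0.17 in Fah off livers (95% interval -0.56 to 0.19; limma adjusted p 0.423) and -0.52 ± 0.19 in Fah p21 off livers (95% interval -0.95 to -0.10; limma adjusted p 0.0653). The Fah p21 off change of Nr1h4 passed under quantile normalization (-0.63, limma adjusted p 0.0294), under scaling to a common median (-0.76, 0.0149) and without normal 1 (-0.61, 0.0459), and was 0.15 under hepatocyte marker scaling, where the Fah off change was 0.39.

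**Figure D2:**
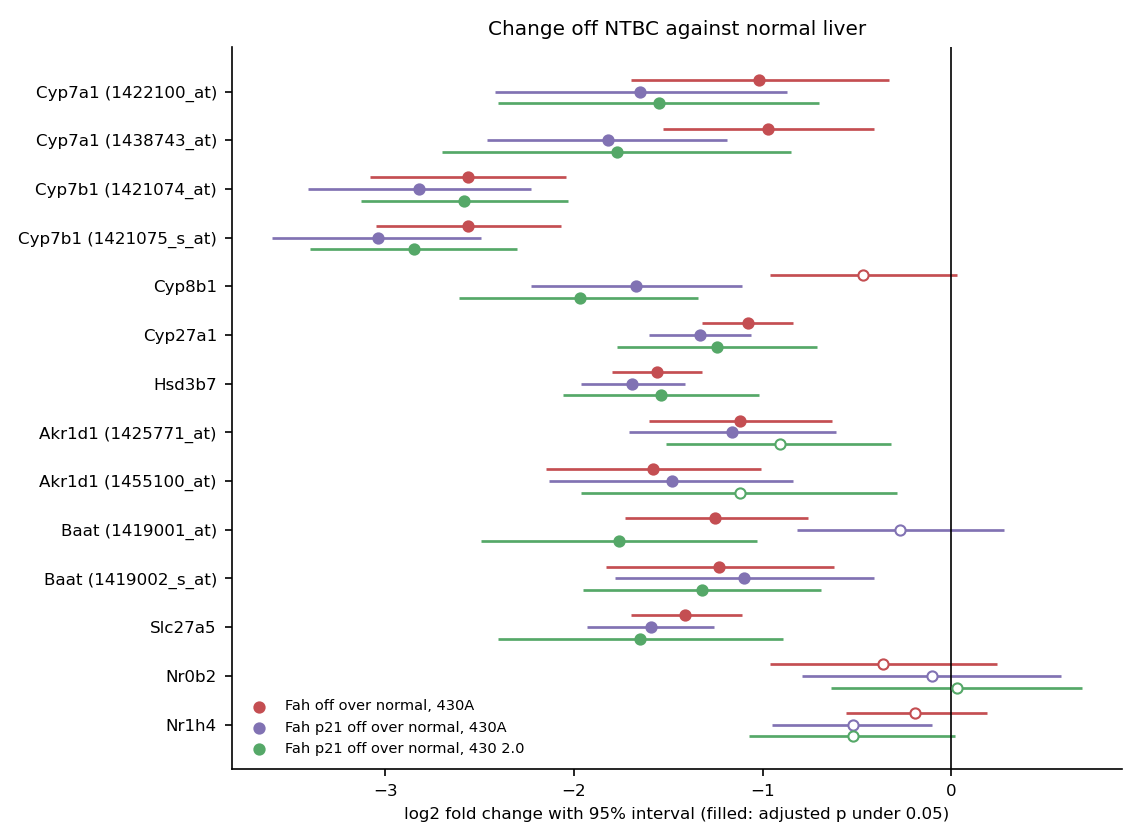
Log2 fold change over normal liver with its 95% interval for the 14 probe sets tested on both arrays, with Fah off and Fah p21 off livers on 430A and Fah p21 off livers on 430 2.0; filled points have a limma adjusted p under 0.05. Both Cyp7b1 probe sets lie lowest, between -2.56 and -3.04, and both receptors are open points throughout.

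Among enzymes the livers off NTBC differed in depth of the decrease. The median enzyme probe set stood at 50.0%, 40.4% and 31.4% of the normal mean in Fah off 1, 2 and 3 and at 33.5% and 31.4% in the Fah p21 off livers, against 89.4% to 104.4% in the normal livers. Fah off 3 was the lowest liver of its group in 9 of 12 enzyme probe sets. Normal 4 was the lowest normal liver in 7 of 12. Both counts cover the enzyme probe sets only, some of which share a gene. The share over all probe sets was not taken, so the counts are not read as particular to the enzymes.

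The comparison of double with single knockout livers off NTBC asks what p21 loss changed. None of the 14 probe sets passed, against 0.0392% of all probe sets called in either direction, or 6 of 15307. At an unadjusted p under 0.05 there were 3 of 14, against 8.06% of all probe sets. Cyp8b1 was 2.3-fold lower in Fah p21 off than in Fah off livers, at a mean signal of 1355.2 ± 694.7 (SD, n = 2) against 2954.8 ± 579.8 (SD, n = 3); the log2 change was -1.20 ± 0.27 (SE; 95% interval -1.79 to -0.61; limma adjusted p 0.172). Without Fah p21 off 1 it was -1.74, a change that rests on Fah p21 off 2 alone. That liver read 863.9, against 1846.4 in Fah p21 off 1. Baat probe set 1419001_at averaged 248.2 ± 16.3 in Fah p21 off livers (SD, n = 2) and 124.7 ± 41.5 in Fah off livers (SD, n = 3), a log2 change of 0.98 ± 0.26 (SE; 95% interval 0.40 to 1.56; limma adjusted p 0.286). Its partner 1419002_s_at averaged 687.0 ± 23.7 in Fah p21 off and 676.4 ± 288.0 in Fah off livers, a log2 change of 0.13 with an interval from -0.60 to 0.86. Cyp7a1 probe set 1438743_at had a log2 change of -0.85 ± 0.30 (SE; 95% interval -1.52 to -0.18; limma adjusted p 0.479), and 1422100_at one of -0.63 ± 0.37 (95% interval -1.44 to 0.19). The narrowest intervals belonged to Hsd3b7, from -0.42 to 0.16, and Cyp27a1, from -0.53 to 0.04. For Nr0b2 the interval ran from -0.46 to 0.97 and for Nr1h4 from -0.78 to 0.11. The comparisons of each knockout with normal livers share the normal livers, so their changes are not independent of each other.

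**Figure D3:**
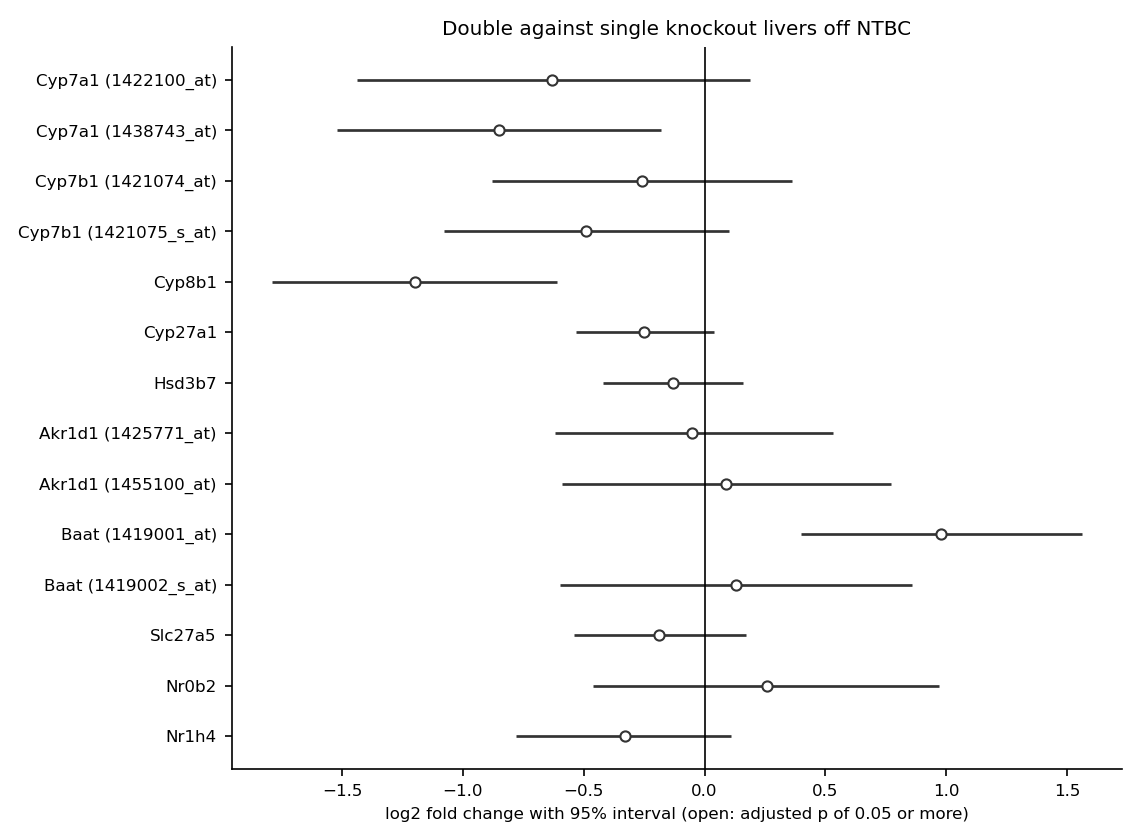
Log2 fold change of Fah p21 off over Fah off livers with its 95% interval for the 14 probe sets on 430A; open points have a limma adjusted p of 0.05 or more. Cyp8b1 lies lowest at -1.20 and Baat probe set 1419001_at highest at 0.98, and no point is filled.

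The 2 further Fah p21 off livers on 430 2.0 were set against 1 normal liver, with 1 residual degree of freedom in the fit. The spread there comes from the 2 Fah p21 off livers and from the other probe sets, and the normal liver is assumed to vary as they do. Of 16 probe sets 14 passed the filter, and 10 of these, of 7 genes, were called lower, against 3.80% of all probe sets tested; 0 were called higher, against 7.71%. The median log2 change of the 14 was -1.54, where that of all probe sets was 0.07. Cyp7b1 again fell most, reading 2913.8 and 3437.8 in Fah p21 off livers against 18962.5 in the normal liver on 1421074_at, and 2155.3 and 2539.8 against 16874.2 on 1421075_s_at (log2 change -2.58 ± 0.23 and -2.85 ± 0.23, SE; limma adjusted p 0.00105 and 0.000765). Cyp8b1 read 1497.1 and 2070.9 in Fah p21 off livers against 6916.2 in the normal liver (-1.97 ± 0.27, SE; limma adjusted p 0.00509). Cyp7a1 read 162.9 and 260.0 against 609.7 on 1422100_at and 554.1 and 1082.8 against 2655.6 on 1438743_at (-1.55 ± 0.36 and -1.77 ± 0.39, SE; limma adjusted p 0.0366 and 0.0302). These enzymes of both routes were thus lower in each further double knockout liver than in the normal one.

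On the same array Hsd3b7 read 4826.2 and 4655.4 in Fah p21 off livers against 13784.6 in the normal liver, and Cyp27a1 read 3322.3 and 3654.7 against 8221.3 (-1.54 ± 0.22 and -1.24 ± 0.22, SE; limma adjusted p 0.00629 and 0.0151). Slc27a5 read 2693.6 and 4400.2 in Fah p21 off livers against 10779.0 in the normal liver (-1.65 ± 0.32, SE; limma adjusted p 0.0196). Baat probe set 1419001_at, which had overlapped on 430A, read 272.5 and 390.6 in Fah p21 off livers against 1113.9 in the normal liver (-1.76 ± 0.31, SE; limma adjusted p 0.0136), and 1419002_s_at read 1255.7 and 1711.1 against 3669.5 (-1.32 ± 0.27, SE; limma adjusted p 0.0226). Here both probe sets of Baat were lower. Akr1d1 read 570.0 and 651.1 in Fah p21 off livers against 1151.9 in the normal liver on 1425771_at and 1049.2 and 1874.0 against 3060.5 on 1455100_at, which did not pass (-0.91 ± 0.25 and -1.12 ± 0.35, SE; limma adjusted p 0.0642 and 0.0933). Nr0b2 read 2088.3 and 1471.2 in Fah p21 off livers against 1721.3 in the normal liver (0.03 ± 0.28, SE; limma adjusted p 0.967), and Nr1h4 read 1634.2 and 1823.2 against 2479.5 (-0.52 ± 0.23, SE; limma adjusted p 0.21). The 2 probe sets that missed the filter were dim: Cyp7b1 1446995_at read 8.9 and 4.2 in Fah p21 off livers against 31.0 in the normal liver, and Cyp27a1 1457665_x_at read 18.6 and 1.7 against 13.8. The 10 calls depended on the fit. Without the filter on dim probe sets 3 were left, where 287 of all 45037 probe sets were called lower. Without the intensity trend 2 were left, where 202 of 26925 were called lower, against 1024 in the main fit. The median log2 change of the bile acid probe sets was -1.54 in each of these fits. None of the 7 hepatocyte markers passed on this array, where only 4.91% of all genes were called lower and 9.11% higher. Their median log2 change was -0.20, with sums of 135610.5 to 146849.1 in Fah p21 off livers against 164597.0 in the normal liver.

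Within the normal group, the 2 knockout livers on NTBC were set beside the 2 wildtype livers as values only. The mean of the knockout livers was between 60.2% and 121.2% of the wildtype mean over the 14 probe sets, lower in 8 and higher in 6. The pairs did not overlap in 4 of 14, against 57.4% of all probe sets. Those were Akr1d1 1455100_at at 60.2%, Cyp7a1 1438743_at at 66.4%, Cyp27a1 at 90.7% and Slc27a5 at 121.2%. No test was made on these pairs of livers.

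Other enzymes of bile acid synthesis moved both ways. Of 14 tested genes by their brightest probe set, 2 were called higher and 7 lower in Fah off livers, and 1 higher and 6 lower in Fah p21 off livers. Among all 9195 genes, 19.7% were higher and 16.5% lower in Fah off livers, and 17.8% higher and 11.5% lower in Fah p21 off livers. The list's median log2 change was -0.65 in Fah off and -0.51 in Fah p21 off livers, where the medians of all genes were 0.00 and 0.09. Cyp39a1, another oxysterol hydroxylase, rose: it read 729.6, 674.8 and 682.0 in Fah off livers and 1124.7 and 926.9 in Fah p21 off livers, against 86.5, 112.0, 126.3 and 56.1 in normal livers. Its log2 changes were 2.80 ± 0.22 in Fah off and 3.35 ± 0.25 in Fah p21 off livers (SE; limma adjusted p 5.11e-06 and 8.23e-06), opposite in direction to those of Cyp7b1. On 430 2.0 Cyp39a1 read 1867.5 and 2700.4 in Fah p21 off livers against 143.2 in the normal liver (3.94 ± 0.30, SE; limma adjusted p 0.000567).

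The list members that fell included Cyp2c70, which makes muricholic acids in mice, at -0.91 ± 0.12 in Fah off livers (log2, SE; limma adjusted p 0.00018). Slc27a2, a very long chain acyl-CoA synthetase, changed by -0.77 ± 0.09 in Fah off and -0.89 ± 0.10 in Fah p21 off livers (limma adjusted p 8.69e-05 and 0.000128). Scp2, which carries sterols and cleaves side chains in peroxisomes, changed by -0.89 ± 0.10 and the aldo-keto reductase Akr1c6 by -0.90 ± 0.09 in Fah p21 off livers (limma adjusted p 9.87e-05 and 4.91e-05). Under hepatocyte marker scaling the calls of Slc27a2 (-0.18 in Fah off and -0.21 in Fah p21 off livers, limma adjusted p 0.103 and 0.0835) and Scp2 (-0.21, 0.0504) were lost. Amacr, the racemase of side-chain intermediates, read 287.5, 287.4 and 145.1 in Fah off livers and 1441.5 and 1067.2 in Fah p21 off livers, against 646.7, 697.4, 493.2 and 1583.6 in normal livers. Its highest normal value was that of normal 4, which shares the double knockout genotype. Amacr was lower in Fah off livers (-1.71 ± 0.36, SE; limma adjusted p 0.00362), a call lost with the Fah knockout on NTBC as the only control (-1.07, limma adjusted p 0.104), and did not pass between Fah p21 off and Fah off livers (2.39 ± 0.43, SE; limma adjusted p 0.0857). Fdx1, a ferredoxin that feeds electrons to mitochondrial P450 enzymes, changed by -0.34 ± 0.13 in the same comparison (limma adjusted p 0.535). On 430 2.0, 1 of 15 genes of this list passed upward and 0 downward, against 9.11% and 4.91% of all genes; Stard5, a sterol carrier, changed by -0.85 ± 0.24 there without passing (limma adjusted p 0.0651).

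Other regulators were mostly lower where they passed. Of 19 tested genes 2 were called higher and 8 lower in Fah off livers, and 1 higher and 9 lower in Fah p21 off livers, with medians of -0.47 and -0.52. Over all genes 19.7% were higher and 16.5% lower in Fah off livers, and 17.8% higher and 11.5% lower in Fah p21 off livers. Rxra, the partner of Nr1h4 on DNA, read 728.2, 750.3 and 425.6 in Fah off livers and 534.3 and 749.4 in Fah p21 off livers, against 1790.0, 1577.0, 1816.4 and 1930.0 in normal livers. Both knockouts lay below every normal liver (-1.51 ± 0.20 and -1.47 ± 0.23, SE; limma adjusted p 0.000188 and 0.000786). Fgfr4, the hepatic receptor of Fgf15, read 151.7, 126.2 and 91.0 in Fah off livers and 196.3 and 225.7 in Fah p21 off livers, against 499.7, 510.2, 363.2 and 447.5 in normal livers. It was lower in Fah off livers (-1.82 ± 0.19, SE; limma adjusted p 3.2e-05) and in Fah p21 off livers (-1.07 ± 0.21, SE; limma adjusted p 0.00367); between them the change was 0.76 ± 0.23 and did not pass (limma adjusted p 0.364).

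Dbp, a clock-controlled activator of Cyp7a1 in rodents, read 153.9, 165.9 and 125.9 in Fah off livers and 160.3 and 196.9 in Fah p21 off livers, against 359.6, 458.2, 1491.1 and 907.9 in normal livers. Its log2 changes were -2.15 ± 0.39 in Fah off and -1.90 ± 0.45 in Fah p21 off livers (SE; limma adjusted p 0.00149 and 0.00871), and the second call was lost without Fah p21 off 1 (-1.76, limma adjusted p 0.0789). As groups, both knockouts off NTBC were thus below normal livers for Dbp and for Cyp7a1. Among the normal livers Dbp ranged widely and did not follow Cyp7a1. The part of Dbp in the Cyp7a1 change was not tested. The constitutive androstane receptor Nr1i3 changed by -1.27 ± 0.20 in Fah p21 off livers (limma adjusted p 0.000774). Nr5a2, which binds the promoters of Cyp7a1 and Cyp8b1, was lower in Fah p21 off than in normal livers (-0.95 ± 0.22, SE; limma adjusted p 0.00791) and did not pass in Fah off livers (-0.47 ± 0.19, SE; limma adjusted p 0.0819). It changed by -0.48 ± 0.23 between Fah p21 off and Fah off livers and did not pass (limma adjusted p 0.644). Jun, a stress-responsive transcription factor, rose: it read 636.8, 509.3 and 702.5 in Fah off livers and 471.0 and 526.8 in Fah p21 off livers, against 210.0, 163.5, 245.5 and 237.8 in normal livers (1.49 ± 0.17 and 1.20 ± 0.20, SE; limma adjusted p 7.26e-05 and 0.00107). On 430 2.0, 1 of 19 regulators was higher and 5 lower, where 9.11% of all genes were higher and 4.91% lower. Among them Dbp changed by -2.85 ± 0.28, Fgfr4 by -1.72 ± 0.32, Rxra by -1.28 ± 0.24 and Jun by 2.34 ± 0.26 (log2, SE, limma adjusted p 0.00142, 0.0179, 0.016 and 0.00225). Dbp and Jun were read there on 1438211_s_at and 1417409_at, and on 430A on 1418174_at and 1448694_at. The sizes of their changes are thus not comparable between the arrays.

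Transporters changed in both directions. Of 15 tested genes 5 were higher and 8 lower in Fah off livers, and 4 higher and 7 lower in Fah p21 off livers, where 19.7% of all genes were higher and 16.5% lower in Fah off livers and 17.8% higher and 11.5% lower in Fah p21 off livers. These counts include 3 genes, Slco1a1, Slc10a2 and Abcb1a, that were below the filter level in every liver of 1 side and so entered the test through the other; their signals are given without a fold or a test. Slco1a1, an uptake carrier of the basolateral membrane, read 9.9, 9.3 and 10.6 in Fah off livers and 9.6 and 23.3 in Fah p21 off livers, against 4204.4, 3615.6, 3155.1 and 2831.2 in normal livers. Its signals off NTBC lay near the offset of 9.9 added before log2. Slc10a2, a bile acid carrier of cholangiocytes and ileum, read 16.1, 10.1 and 0.4 in Fah off livers and 4.9 and 22.0 in Fah p21 off livers, against 284.9, 314.5, 193.9 and 99.3 in normal livers. It was also on the list of intestinal markers, whose Fabp6 averaged 0.9 in Fah off, 1.2 in Fah p21 off and 2.3 in normal livers. Slco1b2, another organic anion carrier, read 1646.7, 1338.8 and 513.0 in Fah off livers and 1117.2 and 1376.0 in Fah p21 off livers, against 5229.6, 5322.3, 4780.6 and 5014.4 in normal livers (-2.27 ± 0.31 and -2.03 ± 0.35, SE; limma adjusted p 0.000206 and 0.00148). Slc10a1 and Abcb11, the main carriers for bile salt uptake and export, were picked after their values were seen. Slc10a1 averaged 1770.2 ± 210.9 in Fah off (SD, n = 3) and 1807.5 ± 99.3 in Fah p21 off livers (SD, n = 2), against 6863.9 ± 399.9 in normal livers (SD, n = 4). Abcb11 averaged 812.1 ± 17.8 in Fah off and 993.6 ± 399.2 in Fah p21 off livers, against 3152.5 ± 305.0 in normal livers with the same numbers of livers. Their log2 changes were -1.95 ± 0.11 and -1.94 ± 0.18 in Fah off livers and -1.92 ± 0.13 and -1.71 ± 0.20 in Fah p21 off livers (SE), and all 4 passed.

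The export pumps of the list did not move one way, since Abcb11 fell while Abcc2 rose. Abcc2, the canalicular conjugate export pump, read 2118.4, 1129.9 and 1781.9 in Fah off livers and 3173.0 and 1924.4 in Fah p21 off livers, against 356.6, 515.0, 412.6 and 665.0 in normal livers (1.75 ± 0.27 and 2.36 ± 0.30, SE; limma adjusted p 0.000443 and 0.000228). Abcb1a, a multidrug export pump, read 362.3, 310.7 and 427.3 in Fah off livers and 236.7 and 353.3 in Fah p21 off livers, against 35.1, 51.6, 70.3 and 85.3 in normal livers, all below the filter level. Abcc2 did not overlap between livers off NTBC and normal livers. Abcb1a entered the test through the livers off NTBC, so its separation from the normal livers is not counted. Of the other pumps, Abcb4, the phospholipid exporter, was higher in both knockouts (0.71 ± 0.11 in Fah off and 0.39 ± 0.13 in Fah p21 off livers, SE; limma adjusted p 0.000567 and 0.0387). The sterol exporter Abcg8 was lower in Fah off livers (-0.52 ± 0.18, SE; limma adjusted p 0.0436), and its partner Abcg5 and the basolateral pump Abcc3 did not pass in either knockout (limma adjusted p from 0.0922 to 0.876); these 3 were named after their values were seen. Between the knockouts no gene of the 3 lists passed; Abcb4 changed by -0.32 ± 0.13 and Abcc2 by 0.60 ± 0.32 (limma adjusted p 0.581 and 0.679). On 430 2.0, 3 of 17 transporters were higher and 5 lower, where 9.11% of all genes were higher and 4.91% lower. The basolateral bile acid exporter Abcc4, which was read on that array only, had 13324.6 and 9766.4 in Fah p21 off livers against 397.9 in the normal liver (4.83 ± 0.26, SE; limma adjusted p 0.000302).

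**Figure D4:**
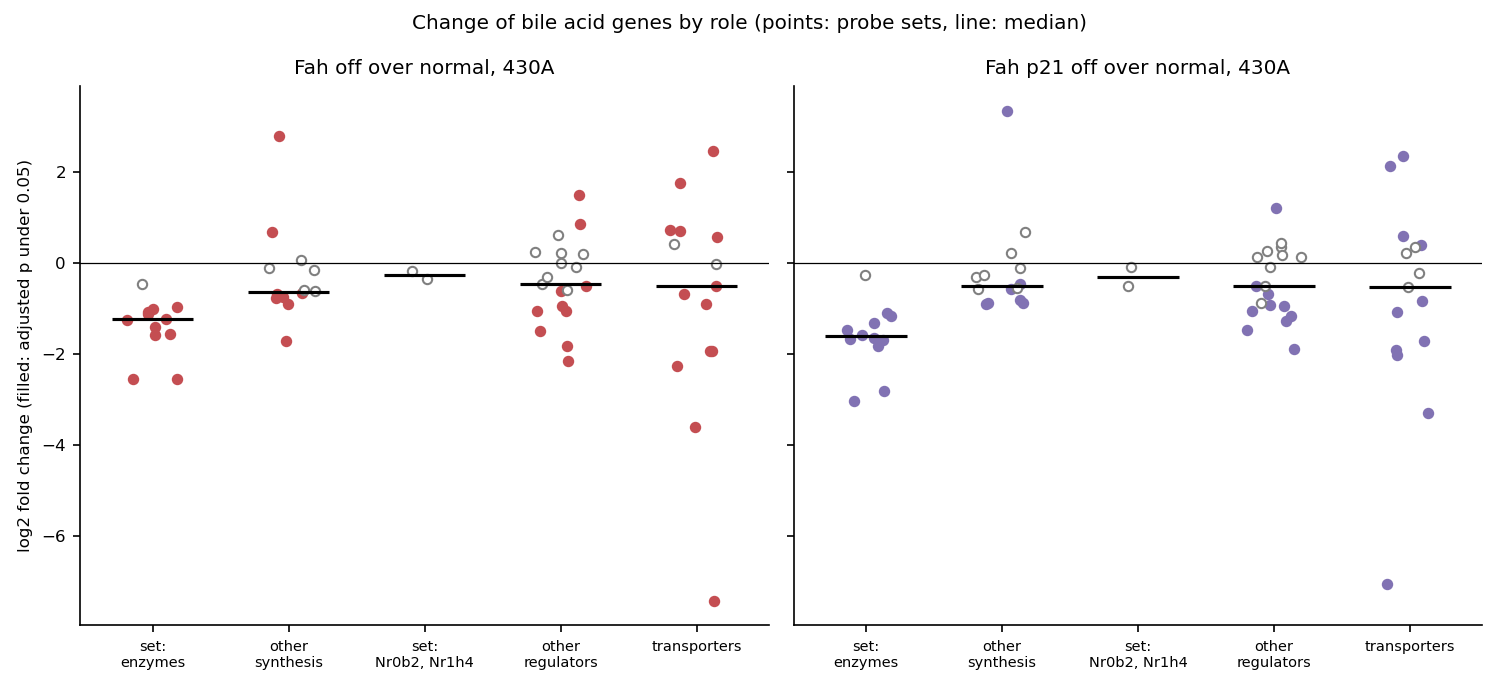
Log2 fold change over normal liver on 430A for Fah off (left) and Fah p21 off livers (right), by role, with a point per probe set (filled: limma adjusted p under 0.05) and a line at the median. The 8 enzymes of the set lie below 0 throughout, while the lists of other synthesis enzymes, other regulators and transporters hold members on both sides. The Slco1a1, Slc10a2 and Abcb1a points rest on signals below the filter level in 1 side.

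As a description over the 9 livers of 430A, which differ in group, the genes whose log2 signal tracked Cyp7a1 most closely among 9194 others were Oxld1 (Pearson r 0.959), Gpld1 (0.959) and Sec14l4 (0.954). For Cyp8b1 they were Rtf2 (0.948), Uqcc3 (0.941) and Grb7 (0.937). Nr0b2 had looser neighbours, Denr (0.790), Gp1bb (0.782) and Ergic2 (0.769). No test was made.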

How the data were processed

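Liver RNA of 12 samples was measured on Affymetrix arrays, 9 on 430A and 3 on 430 2.0. The deposited intensity values, 1 signal per probe set on a linear scale, were made by the authors with MAS5 in GCOS 1.4.0.036 (per the submitters' processing notes). Both tables were scaled separately, so tests stayed within a table. From these signals log2(signal + offset) was computed, with the offset at the 10th percentile (9.9 on 430A, 3.8 on 430 2.0), which understates changes of dim probe sets. Probe sets at or above the 40th percentile of their array on at least 2 arrays were tested, 15307 of 22626 on 430A and 26925 of 45037 on 430 2.0, after 64 control rows were left out of each table.

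All groups of a table entered 1 fit (lmFit, then eBayes with an intensity trend, from limma 3.58.1 under R 4.3.3), with two-sided p-values adjusted by Benjamini-Hochberg over all probe sets tested and calls at an adjusted p under 0.05. The fit had 6 residual degrees of freedom on 430A and 1 on 430 2.0. It was tested on simulated data. At most 0.426% of signals were identical between any pair of arrays, and each array counted once. Names came from GEO's platform annotation, with symbols updated by Entrez identifier through RefSeq's GRCm38.p6 table (20351 and 34741 probe sets matched); probe sets with several symbols were not named. Other genes were read by their brightest probe set. Named per list and comparison are the passing members of largest change, at most 4, or the 2 of smallest p where fewer than 2 passed; Slc10a1, Abcb11, Abcg8, Abcg5 and Abcc3 fall outside this rule. The genes of the set and all lists were chosen with earlier results of these data known. One further promoter motif is not reported here. Plots used matplotlib 3.10.9 (Python 3.11.15). Alternatives covered the filter, offset, scaling, variance model, control livers, replicate block and each left-out liver.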

Additional observations from a re-analysis of the deposited data

How the results depend on the processing

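With only the genotype-matched liver on NTBC as control, calls over all probe sets numbered 2596 for Fah off (5437 with all 4 normal livers). For Fah p21 off they numbered 1862 (4353), with 5 bile acid probe sets called lower (11). These counts rest on an assumed spread of the lone control, so they are not read as results for either knockout. All 14 bile acid probe sets had negative log2 changes there in each knockout. Their median was -1.33 in Fah off and -1.27 in Fah p21 off livers. Hepatocyte marker scaling, chosen after seeing the data, gave 9105 calls for Fah off, 10234 for Fah p21 off and 20 between the knockouts. Between the knockouts the 6 calls became 1 with the 60th percentile filter, without an offset or with the replicate block, 14 with the 25th percentile offset, 3 at a common median, 13 without the trend and 2 with robust eBayes. On 430 2.0 calls numbered 1002 without the filter and 1225 without the trend (3101 in the main fit). Of these 287 and 202 were lower (1024), among them 3 and 2 bile acid probe sets (10). Quantile normalization and a common median split the Fah p21 off calls into 2328 and 1626 higher and 2171 and 2507 lower (2716 and 1637), as the median of all probe sets moved from 0.11 to -0.02 and -0.13. Leaving out 1 liver gave 4315 to 5246 calls for Fah off, 2533 to 4663 for Fah p21 off (lowest without double knockout liver 1, and 2595 without liver 2) and 1 to 80 between the knockouts (80 without double knockout liver 1), with 10 to 12, 8 to 12 and 0 to 1 bile acid probe sets called lower. The sign turned under hepatocyte marker scaling for Nr1h4 (0.39), Cyp8b1 (0.12) and Nr0b2 (0.22) in Fah off livers, for Baat 1419001_at (0.39), Nr1h4 (0.15) and Nr0b2 (0.57) in Fah p21 off livers, and for Akr1d1 1425771_at (0.04) between the knockouts; none of these passed. Between the knockouts it also turned for Baat 1419002_s_at at a common median (-0.04) and with the replicate block (-0.09), and for Akr1d1 1455100_at with quantile normalization (-0.04) and a common median (-0.07). Leaving out 1 liver moved these between -0.29 and 0.35 (Baat), -0.22 and 0.41 (Akr1d1 1455100_at) and -0.33 and 0.13 (Akr1d1 1425771_at). Nr0b2 ranged from -0.26 to 0.19 in Fah p21 off livers, was 0.10 with only the knockout livers on NTBC as control, and was -0.11 at a common median on 430 2.0. Of the single-gene values 553 of 572 for Fah off, 545 of 572 for Fah p21 off, 368 of 380 between the knockouts and 205 of 239 on 430 2.0 kept direction and side of the threshold. Same-numbered livers did not deviate together (7 pairs, r from -0.28 to 0.07). Deviations from the mean of so few livers are tied to each other, so this cannot show whether the numbers mark shared handling. The replicate block gave 4463 and 3479 calls for Fah off and Fah p21 off with 11 bile acid probe sets lower in each. The causes of these shifts were not tested.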
